A study of Rattus norvegicus with 21 samples.

Results

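The genes described here are 8 genes of antigen presentation by class II molecules of the major histocompatibility complex (MHC), measured in rat islets of Langerhans, the endocrine tissue of the pancreas. They were chosen by name, with earlier results of these data known, among 28914 gene rows of the count table. Of the 8, 6 were among the 13136 genes that passed a low-count filter. The chosen genes were RT1-Da and RT1-Db1, RT1-Ba and RT1-Bb (the chains of the class II molecules), RT1-DMa and RT1-DMb (the chains of the peptide exchanger), Cd74 (the invariant chain) and Ciita (the transcriptional coactivator of the set). The PX group comprised 11 libraries from animals with 90% of the pancreas removed (partial pancreatectomy), and the sham group 10 libraries from sham-operated animals. All animals were Lewis rats, and polyadenylated RNA was taken 4 weeks after surgery. The description field reads 4 to 5 weeks without saying whether this is an age. Libraries are called here by the animal number of their title, which also gives an average BG before sacrifice without a unit, which ran from 101 to 174 in PX and from 82 to 104 in sham.

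Class II molecules are paired alpha and beta chains that carry peptides from endosomes to the cell surface, where CD4 T cells read them. The invariant chain fills the groove of a new class II molecule and guides it to the endosome, where proteases cut the chain down and the DM heterodimer swaps the last fragment for an antigen peptide. Macrophages, dendritic cells and B cells express these genes strongly, and in other cells interferon gamma can turn them on through Ciita. In the rat, RT1-D corresponds to human HLA-DR and RT1-B to HLA-DQ.

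Total counts ran from 4001908 to 13187959 reads per library. Separate animals are stated only through those numbers, and the p-values cover no more than the spread from library to library. Sham 46 stood apart from the other sham libraries in macrophage, dendritic cell and mesenchymal markers, and PX 62 had the highest level of every class II gene that passed the filter, so values without each are given below. The 12 islet endocrine markers summed to between 86625 and 244728 CPM (counts scaled to a library of fixed size with TMM factors) in PX and between 98590 and 174042 CPM in sham, so the tissue carried its defining hormones in every library. Of these 12, Iapp was called higher and Sst and Isl1 lower in PX, against 31.1% of all genes tested called in either direction.

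Class II promoters are read by a protein complex that sits on an X box and a Y box (an inverted CCAAT element) and to which Ciita docks. The stretches of promoter that hold these letters are shown as background, and no tie between them and the levels was tested. Sequences are from RefSeq on build GRCr8, where 6 of the 8 genes had an entry, and are written 5′ to 3′ on the strand of the gene. The stretch shown for RT1-Da lies at chr20:4515321-4515390 on the plus strand, and that for RT1-Db1 at chr20:4560218-4560287 on the minus strand. The stretch for RT1-Ba lies at chr20:4576969-4577038 on the plus strand, and that for RT1-Bb at chr20:4604155-4604224 on the minus strand. The stretch for RT1-DMa lies at chr20:4712375-4712444 on the minus strand, and that for Cd74 at chr18:56526972-56527041 on the plus strand. Capitals mark matches to ACNGATG, a core of the X box, and to ATTGG, the core of the Y box, or its reverse complement CCAAT.
RT1-Da: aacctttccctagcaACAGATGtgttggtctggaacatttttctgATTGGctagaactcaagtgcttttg
RT1-Db1: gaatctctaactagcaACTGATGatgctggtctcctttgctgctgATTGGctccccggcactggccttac
RT1-Ba: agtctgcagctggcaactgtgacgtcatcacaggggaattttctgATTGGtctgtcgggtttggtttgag
RT1-Bb: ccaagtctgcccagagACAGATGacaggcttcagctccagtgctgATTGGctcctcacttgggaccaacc
RT1-DMa: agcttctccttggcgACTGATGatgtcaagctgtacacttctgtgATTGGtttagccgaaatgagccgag
Cd74: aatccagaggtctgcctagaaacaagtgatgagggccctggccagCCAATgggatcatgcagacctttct

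ATTGG, searched on both strands, was found in the 300 bases around the start of 6 of 6 class II genes and in 12549 of 33469 promoters of the table (37.5%). ACNGATG, likewise searched on both strands, was found in 4 of 6 class II genes and in 3402 promoters (10.2%). The pair, with ACNGATG followed by ATTGG on the same strand and 15 to 35 bases between them, was found in 58 promoters (0.173%), of which 4 were RT1-Da, RT1-Db1, RT1-Bb and RT1-DMa. Between the matches lay 23, 22, 22 and 23 bases. The motif spellings were chosen with these promoters in view. The range of 15 to 35 bases holds the spacing seen in these 4 promoters, and the share of 0.173% depends on that range. In RT1-Ba and Cd74 these letters of the X box were not in the window searched.

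Islets of PX and sham animals were compared 4 weeks after the operation by which the study examines hyperglycemia. All 6 class II genes that passed the filter were called higher in PX, against 14.9% of all genes tested called higher and 31.1% called in either direction. They also separated the groups completely, with each of the 11 PX libraries above each of the 10 sham libraries, against 1.55% of all genes tested. Members passed the filter partly through the level in PX, so these counts describe 6 of 8 genes. The members were also chosen with earlier results of these data known, so the shares over all genes are context and no test. In the sham libraries alone 5 of the 6 passed the filter and Ciita did not. Ciita thus entered these counts through PX, the group where it is high.

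Both chains of the D molecule were higher in PX. RT1-Da, its alpha chain, ran from 123 to 885 CPM in PX with a median of 170, against 14.9 to 52.3 CPM in sham with a median of 28.5. No PX library overlapped a sham library, and PX 62 lay at the top. The log2 fold change of RT1-Da was 3.37 ± 0.37 (SE; quasi-likelihood test of edgeR, adjusted p = 1.5e-06). RT1-Db1, its beta chain, ran from 26.2 to 275 CPM in PX with a median of 50.6, against 4.95 to 21.9 CPM in sham with a median of 8.42. The lowest PX library, PX 44, lay just above sham 46, the highest sham library. RT1-Db1 rose by 3.09 ± 0.43 on the log2 scale (edgeR, adjusted p = 2.0e-05), an 8.50-fold difference.

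Both chains of the B molecule were higher in PX as well. RT1-Ba, its alpha chain, ran from 37.2 to 286 CPM in PX with a median of 64.2, against 7.34 to 18.4 CPM in sham with a median of 10.0. Its lowest PX library, PX 44, lay above the highest sham library, sham 46. RT1-Ba rose 8.83-fold, or 3.14 ± 0.35 on the log2 scale (edgeR, adjusted p = 1.5e-06). RT1-Bb, its beta chain, ran from 22.6 to 160 CPM in PX with a median of 38.2, against 5.15 to 13.3 CPM in sham with a median of 7.29. Here too the groups stayed apart, and sham 46 was the highest sham library. RT1-Bb rose 7.48-fold, or 2.90 ± 0.32 on the log2 scale (edgeR, adjusted p = 1.2e-06).

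Cd74, whose product occupies the groove of both molecules on their way to the endosome, was the most abundant of the set. It ran from 167 to 999 CPM in PX with a median of 289, against 35.6 to 95.2 CPM in sham with a median of 53.3. PX 62 and PX 58 were highest, and PX 70 was lowest yet above every sham library. The log2 fold change of Cd74 was 2.86 ± 0.30 (edgeR, adjusted p = 8.6e-07). Ciita, whose product switches on the class II genes, ran from 4.42 to 28.8 CPM in PX with a median of 9.70, against 0.760 to 3.28 CPM in sham with a median of 1.39. Its groups did not overlap either, though in sham the whole gene rested on 132 reads, against 901 in PX. Ciita rose 6.80-fold, or 2.77 ± 0.38 on the log2 scale (edgeR, adjusted p = 1.1e-05).

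**Figure D1:**
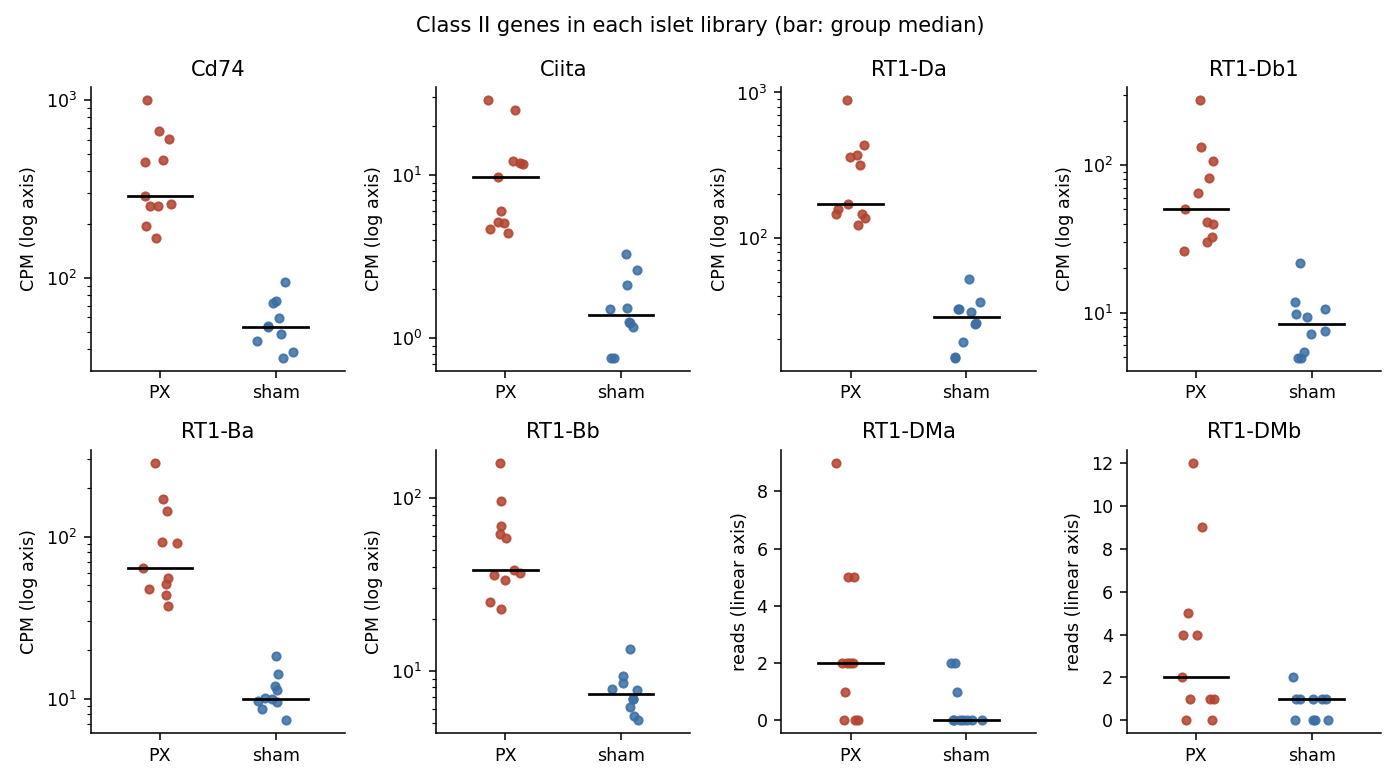
Level of each of the 8 class II genes in every library, with PX on the left and sham on the right of each panel. The 6 genes that passed the filter are in CPM on a log axis, RT1-DMa and RT1-DMb are in reads on a linear axis, and each bar is a group median. In the 6 CPM panels no PX point overlaps a sham point, while the RT1-DM panels hold at most 12 reads per library.

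The genes of the DM heterodimer were near the limit of detection. RT1-DMa had 28 reads in PX, with a count in 8 of 11 libraries, against 5 reads in sham, with a count in 3 of 10 libraries. RT1-DMb had 39 reads in PX, with a count in 9 of 11 libraries, against 7 reads in sham, with a count in 6 of 10 libraries. Most of these libraries held only a few reads, and the groups overlapped in both genes. Fitted without the low-count filter, RT1-DMa had a log2 fold change of 2.28 ± 0.73 (edgeR, adjusted p = 0.0219) and RT1-DMb of 2.19 ± 0.66 (edgeR, adjusted p = 0.0156). In the GRCr8 gene table the 2 genes follow Psmb9, whereas in the count table they lie apart from it and the rows on one side of Psmb9 are named only LOC108348072 and LOC108348139, with Tap1 and Psmb8 on the other side. Those 2 rows had 14 and 21 reads in PX and 0 and 0 reads in sham. Whether reads were split between copies was not tested, and the counts of RT1 genes are uncertain where copies are nearly identical.

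Divided by gene length, Cd74 stood at 301 ± 182 CPM per kilobase in PX and 41.3 ± 13.3 in sham (mean ± SD, 11 and 10 libraries). RT1-Da followed at 118 in PX and 11.4 in sham, then RT1-Ba at 72.3 in PX and 8.16 in sham. RT1-Db1 stood at 25.1 CPM per kilobase in PX and 2.93 in sham, RT1-Bb at 14.3 in PX and 1.90 in sham, and Ciita at 2.06 in PX and 0.295 in sham. RT1-DMa and RT1-DMb came last at 0.223 and 0.203 CPM per kilobase in PX and 0.0291 and 0.0413 in sham. Each neighbour from Cd74 down to RT1-DMa stood above the next in all 21 libraries, except that RT1-Da was above RT1-Ba in 20 of 21. RT1-DMa was above RT1-DMb in only 7 of 21 libraries, so these neighbours cannot be ordered. In the D and B molecules the alpha chain had the higher mean per length in both groups. The lengths used were 2502 and 3193 bases for RT1-Da and RT1-Db1, and 1361 and 4048 bases for RT1-Ba and RT1-Bb. Division by them widens the gap between the chains, though the alpha chain had the higher mean CPM before division too.

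Within a group the 6 genes varied together from library to library. PX 62 was highest in all 6 genes and PX 58 was among the top 3 in all 6, while PX 44 was lowest in 4 and PX 70 in the other two. In sham, sham 46 was highest in all 6. After group means were subtracted, Pearson r between pairs of these genes ran from 0.888 to 0.961 over 21 libraries. These libraries share depth and cell makeup across genes, so r is given as a description.

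Ratios within a library, which do not depend on library scaling, showed that the class II genes did not move by equal amounts. Two-sided permutation tests of 100000 resamples were run on 9 ratios, 7 between class II genes and 2 to macrophage markers, with p adjusted over the 9. Of the 7 between class II genes, 5 passed, among them RT1-DMa to RT1-Da, from which no value is read. Both ratios to macrophage markers, given further on, passed as well. The log2 ratio of RT1-Da to RT1-Db1 was 1.97 ± 0.28 in PX and 1.63 ± 0.23 in sham (mean ± SD, 11 and 10 libraries), so the alpha chain gained 0.34 on its partner (permutation test, adjusted p = 0.00597). For RT1-Ba to RT1-Bb the ratio was 0.71 ± 0.33 in PX and 0.52 ± 0.31 in sham, a difference of 0.19 that did not pass (permutation test, adjusted p = 0.217). The log2 ratio of Cd74 to RT1-Da was lower in PX, at 0.58 ± 0.27 in PX and 1.04 ± 0.27 in sham (permutation test, adjusted p = 0.00155). The log2 ratio of Ciita to RT1-Da was lower too, at -4.66 ± 0.35 in PX and -3.94 ± 0.31 in sham (permutation test, adjusted p = 0.000675). RT1-Ba to RT1-Da stood at -1.59 ± 0.32 in PX and -1.29 ± 0.29 in sham, with an adjusted permutation p of 0.0476 that lost its call in 16 of 24 alternatives. Both ratios with RT1-DMa rest on at most 12 reads of a DM gene per library and are set by the prior count. The prior count also acts on Ciita, which had at most 30 reads in a sham library. The PX minus sham difference in the ratio of Ciita to RT1-Da was -0.72. It ran from -0.80 to -0.57 over 24 alternatives.

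Pathway genes were divided by role, and the median log2 fold change over all 13136 genes was -0.04. Of all genes tested, 14.9% were called higher and 16.2% lower, the shares beside which the list counts below stand. None of the 4 other class II chains in the table passed the filter. Of these, RT1-DOa and RT1-DOb encode the DO molecule, which restrains DM. RT1-DOa had 106 reads in PX and 20 in sham, and RT1-DOb had 128 reads in PX and 31 in sham. RT1-Db2 had 33 reads in PX and 3 in sham, and RT1-Ha had 1 read in PX and 0 in sham.

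Of 12 tested genes that act upstream of class II transcription, 4 were called higher, 1 lower and 7 were not called, with a median log2 fold change of -0.07, and 16.2% of all genes tested were called lower. The kinase genes Jak2 and Jak1, which relay the interferon signal, rose by 0.38 ± 0.12 and 0.34 ± 0.12 on the log2 scale (edgeR, adjusted p = 0.0190 and 0.0311). Irf1, an interferon-induced factor that acts on Ciita, rose by 0.30 ± 0.11, and Ifngr1, a chain of the interferon gamma receptor, rose by 0.59 ± 0.21 (edgeR, adjusted p = 0.0338 and 0.0390). Nfya, a subunit of the factor that binds the Y box, fell by 0.33 ± 0.13 on the log2 scale (edgeR, adjusted p = 0.0456). Singled out after its value was seen, Rfx5, which binds the X box, had a log2 fold change of -0.26 ± 0.11 (edgeR, adjusted p = 0.0792). Ifng itself had 2 reads in PX and 0 in sham, which cannot be compared at this depth.

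Most genes listed for endosomal processing, which include proteases, their helpers and cathepsin inhibitors, were higher in PX. Of 12 tested, 10 were called higher and 0 lower, with a median log2 fold change of 0.81. Ctss, the cathepsin that makes the last cut of the invariant chain, averaged 31.8 ± 21.9 CPM in PX and 4.01 ± 1.87 CPM in sham (mean ± SD, 11 and 10 libraries), a log2 fold change of 2.97 ± 0.37 (edgeR, adjusted p = 5.3e-06). Lgmn, an endopeptidase of endosomes, averaged 195 ± 54.5 CPM in PX and 105 ± 23.0 CPM in sham, a log2 fold change of 0.90 ± 0.15 (edgeR, adjusted p = 1.0e-04). Ifi30, which reduces disulphide bonds of antigens, and Ctsz, a carboxypeptidase, rose 2.83-fold and 4.00-fold (edgeR, adjusted p = 1.6e-04 and 2.0e-04). Sppl2a, which cleaves the final fragment of the invariant chain in the membrane, had a log2 fold change of 0.08 ± 0.13, and Cst3, a cathepsin inhibitor, of 0.47 ± 0.19 (edgeR, adjusted p = 0.641 and 0.0595).

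Class I presentation, which shows peptides of the cell's own proteins to CD8 T cells, was measured beside class II. Of 24 genes tested, 16 were called higher, 0 lower and 8 were not called, with a median log2 fold change of 0.71. B2m, the light chain of class I, averaged 618 ± 223 CPM in PX and 224 ± 42.3 CPM in sham (mean ± SD, 11 and 10 libraries), a log2 fold change of 1.46 ± 0.18 (edgeR, adjusted p = 3.3e-06). The heavy chain genes RT1-N3, RT1-T24-4 and RT1-A2 rose by 1.15 ± 0.18, 0.75 ± 0.13 and 0.85 ± 0.16. The difference between class I and class II was not tested.

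Costimulatory genes and T cell ligands were mixed. Of 6 tested, 4 were called higher and 1 lower. Icam1, an adhesion ligand of T cells, rose by 2.69 ± 0.34 on the log2 scale, Icoslg, a costimulatory ligand, by 1.69 ± 0.33, Cd40 by 1.16 ± 0.32 and Cd83 by 0.74 ± 0.22. Cd274, an inhibitory ligand also called PD-L1, fell by 0.45 ± 0.15 on the log2 scale (edgeR, adjusted p = 0.0214), and Il15 was not called at 0.27 ± 0.27. Cd86 and Cd80, the classical costimulatory ligands, did not pass the filter and are named after their values were seen. Cd86 had 282 reads in PX and 26 in sham, and Cd80 had 105 reads in PX and 15 in sham.

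Cd74 also serves at the cell surface as a receptor for the cytokine MIF, with several partner receptors. Of 4 genes tested on this list, 3 were partner receptors and all 3 were called higher. Cd44, its signalling partner, averaged 78.6 ± 41.7 CPM in PX and 8.19 ± 3.29 CPM in sham (mean ± SD, 11 and 10 libraries), a log2 fold change of 3.25 ± 0.31 (edgeR, adjusted p = 3.8e-07). Cxcr4 and Ackr3, chemokine receptors, rose by 1.32 ± 0.22 and 1.04 ± 0.20. Ddt, a relative of MIF, was at -0.06 ± 0.14. The row named Mif had 0 reads in PX and 2 reads in sham, from which no level of the gene is read. Whether reads of Mif were lost or counted elsewhere was not tested.

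**Figure D2:**
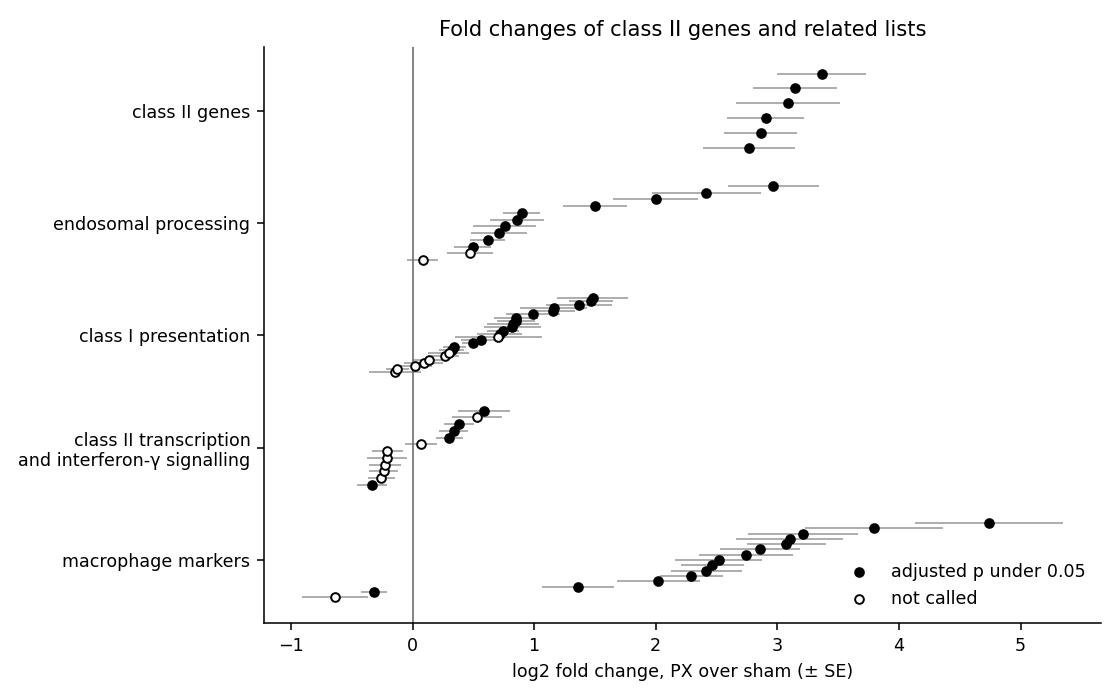
Log2 fold change of PX over sham with its SE for the class II genes that passed the filter and for the related lists, one point per gene. The class II genes lie between 2.77 and 3.37, while the transcription genes lie between -0.33 and 0.59.

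Many macrophage and dendritic cell markers were higher in the same libraries, where 14.9% of all genes tested were called higher. Of 15 macrophage markers tested, 13 were called higher, 1 (Mertk) was called lower and 1 was not called, and their list summed to between 245 and 1910 CPM in PX and between 93.7 and 193 CPM in sham. Marco had 3 reads in PX and 0 in sham. Of 5 dendritic cell markers tested, 4 were called higher (Itgax, Irf8, Itgae and Clec10a) and Zbtb46, a defining factor of conventional dendritic cells, was not called at a log2 fold change of 0.02 (edgeR, adjusted p = 0.949). The list summed to between 48.1 and 309 CPM in PX and between 15.4 and 41.6 CPM in sham. Among defining dendritic cell markers, Cd209 was at 0 in every library, Clec9a had 146 reads in PX and 4 in sham, Xcr1 had 39 reads in PX and 4 in sham, and Flt3 had 96 reads in PX and 42 in sham. In bulk RNA more cells of a type and more RNA per cell cannot be told apart.

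Lymphocyte markers were low. None of 9 B cell markers in the table passed the filter, and their sum ran from 0.693 to 9.89 CPM in PX and from 0 to 2.40 CPM in sham. Of 10 T cell markers only Lck passed, and it rose by 1.66 ± 0.32 on the log2 scale (edgeR, adjusted p = 4.5e-04), while the list summed to between 3.87 and 36.5 CPM in PX and between 1.53 and 4.37 CPM in sham. All 10 mesenchymal markers and 6 of 9 endothelial markers were called higher, against 14.9% of all genes tested. The mesenchymal markers summed to between 616 and 2699 CPM in PX and between 185 and 755 CPM in sham. Of 16 acinar markers, Cpb1, Cela3b, Ctrb1 and Prss2 were called higher, against 14.9% of all genes tested called higher. The acinar list summed to between 48190 and 1290513 CPM in PX and between 4861 and 224368 CPM in sham. TMM scaling lets such a sum pass the library total. With an acinar score as a covariate all 6 class II genes were called, as were 2148 of 13136 genes tested, 1273 of them higher.

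The genes whose levels followed the class II genes most closely across libraries were named by Pearson r with the mean log2 CPM of the 6 genes, over 21 libraries after group means were subtracted, among 11832 genes with a symbol. Clec10a, a lectin of macrophages and dendritic cells, came first at 0.936, followed by Csf1r, the receptor of the macrophage growth factor, at 0.935. Nckap1l had 0.932, Ahnak 0.927, Lyz2 0.923, Vim 0.920, Lsp1 0.915, Plbd1 0.911 and Gda 0.910. Clec10a, Csf1r and Lyz2 also stand on the marker lists. The libraries share depth and cell makeup, so these values are descriptions.

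The level of class II genes was also set against the macrophage markers. The log2 ratio of RT1-Da to the mean of the macrophage markers was 3.67 ± 0.33 in PX and 2.59 ± 0.36 in sham (mean ± SD, 11 and 10 libraries), a difference of 1.07 (permutation test, adjusted p = 9e-05, from the smallest p the resamples allow). The same ratio for Cd74 was 4.25 ± 0.36 in PX and 3.63 ± 0.24 in sham, a difference of 0.62 (permutation test, adjusted p = 0.00018). With only the 13 markers that were called higher, a choice made after seeing the data, the differences were 0.68 for RT1-Da and 0.23 for Cd74 (permutation test, adjusted p = 0.00063 and 0.159). With the macrophage score as a covariate, 0 of 6 class II genes were called, with log2 fold changes of 0.84 for Cd74, 0.85 for RT1-Da, 0.59 for RT1-Ba, 0.54 for RT1-Bb, 0.23 for Ciita and 0.04 for RT1-Db1 (edgeR, adjusted p from 0.191 to 0.969). In that fit 4 of the 6 had an unadjusted edgeR p under 0.05 and only 9 of 13136 genes were called. The R squared of group on the score was 0.757, so group and macrophage level cannot be told apart in these libraries.

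**Figure D3:**
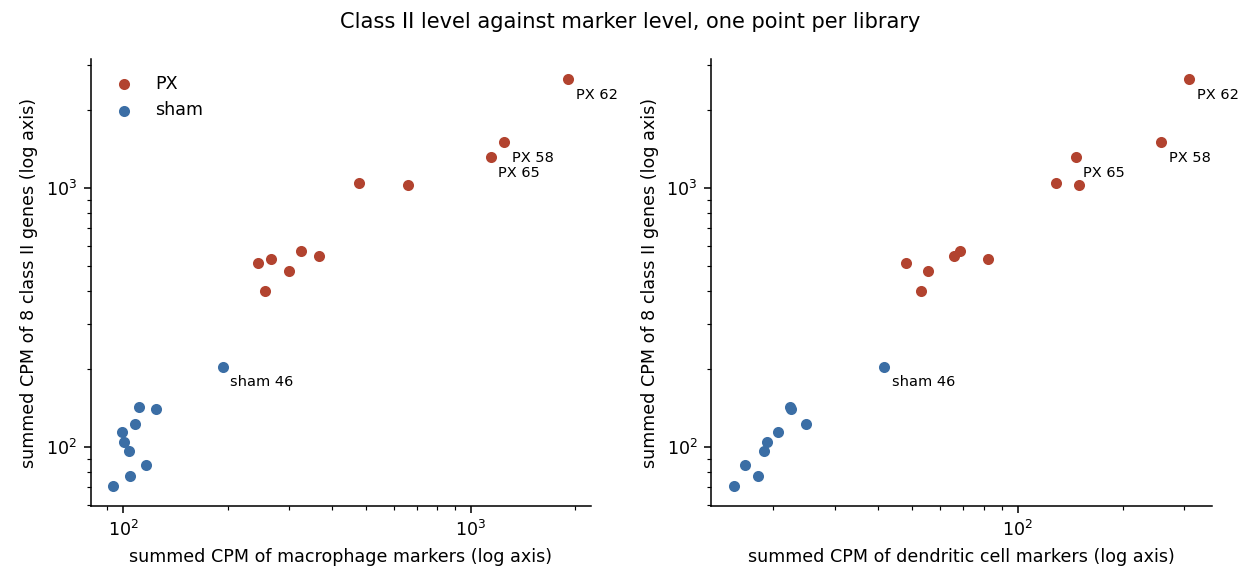
Summed CPM of the 8 class II genes against the summed CPM of the macrophage markers and of the dendritic cell markers, on log axes, with one point per library. PX 62 and PX 58, the libraries with the highest sums of both marker lists, also have the highest class II sums, at 2636 and 1501 CPM, and sham 46 has the highest of the sham libraries at 204 CPM.

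The second comparison asks whether class II level follows BG within a group. Within PX none of the 6 genes was called, and 0% of 11196 genes tested were called by edgeR, with 1439 genes at an unadjusted p under 0.05 and 17 called by DESeq2. The slope of Cd74 was 0.06 ± 0.10 log2 units per 10 units of BG (SE; edgeR, adjusted p = 0.831) and ran from 0.0091 to 0.13 with each library left out in turn, lowest without PX 65 and highest without PX 62, and the other slopes lay between -0.01 and 0.08. With the library totals in place of TMM factors, or without the 2 animals of highest BG, the 5 positive slopes turned negative. With library totals the median slope of all genes tested moved too, from -0.006 to -0.10. Without the 2 animals of highest BG that median was -0.015. PX 62, with a BG of 110, had 999 CPM of Cd74, against 255 CPM in PX 37 with the same BG. PX 65, with the highest BG of 174, had 607 CPM. The TMM factor of PX 65 was 0.359, the lowest of all libraries, which raises its CPM. The factor was 1.11 in PX 37 and 0.820 in PX 62. Before scaling, Cd74 had 2866 of 13187959 reads in PX 65, 1131 of 4001908 in PX 37 and 7720 of 9459871 in PX 62. Within sham 5 genes could be tested and none was called, with slopes of 0.10 to 0.30 per 10 units (edgeR, adjusted p at 0.99999), 0% of 11532 genes called and 77 genes at an unadjusted p under 0.05. In the 8 PX animals with a BG of 121 or less, all 6 genes were still called against sham, with log2 fold changes from 2.89 to 3.46. In that fit 2550 of 13226 genes tested were called, 1593 of them higher.

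**Figure D4:**
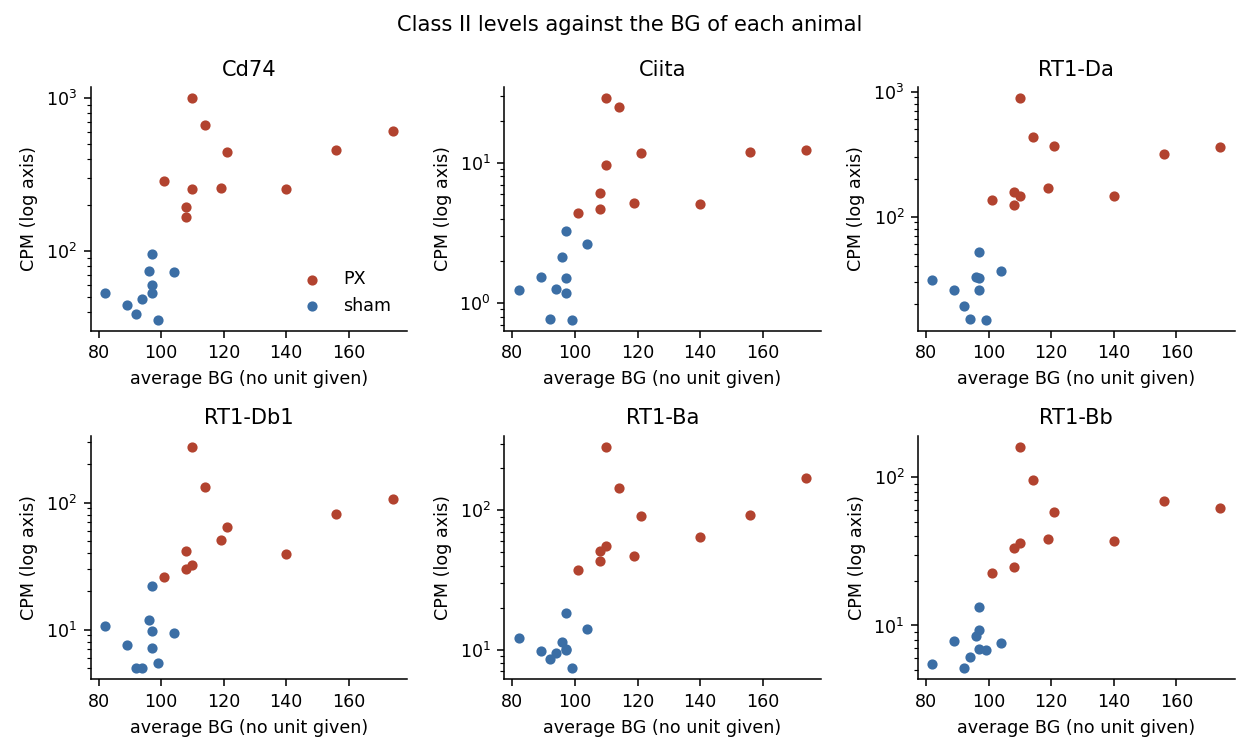
CPM of the class II genes on a log axis against the average BG of each animal, with PX and sham libraries as separate points. PX libraries of BG 101 to 121 lie above all sham libraries, and no slope within PX was called.

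Without sham 46 the log2 fold changes ran from 3.01 for Ciita to 3.57 for RT1-Da, and without PX 62 from 2.53 for Ciita to 3.05 for RT1-Da, with all 6 called each time. Of all genes tested, 4498 of 13197 were called without sham 46, 2607 of them higher. Without PX 62, 3453 of 13055 were called, 1719 of them higher. In the authors' deposited table the log2 fold changes were 2.70 for Cd74, 2.55 for Ciita, 3.17 for RT1-Da, 2.83 for RT1-Db1, 2.87 for RT1-Ba and 2.69 for RT1-Bb, and RT1-DMa and RT1-DMb were not among its rows.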

How the data were processed

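PolyA RNA of islets was sequenced in 21 libraries, with a directional kit, per the labels' protocols. FastQC, Subread, featureCounts and limma were used, per the submitters' processing notes. Their versions, the strand setting and the build were not given in the sources used. The deposited values are whole-number counts of reads per gene without normalization, with a gene length, per the file headers. The authors' deposited table holds a log2 fold change, a linear fold ratio, a mean log2 expression, a p-value and an adjusted p per gene, per the file headers.

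Counts were scaled by TMM and filtered by filterByExpr with the group (minimum count 10, minimum total 15) in edgeR 4.0.16 under R 4.3.3. Robust quasi-likelihood models, tested on simulated data, were then fitted. P-values were adjusted by Benjamini-Hochberg over all genes kept, with a threshold of 0.05. The SE is the log2 fold change divided by the root of F. Log2 CPM used a prior count of 2. BG slopes were fitted per 10 units. Ratios of members were compared with permutation tests in scipy 1.17.1. The named genes were the members, up to 4 genes per pathway list by p plus those needed for a count of 5 or fewer, and the 10 of highest r with the members. For the X box, a longer spelling was tried first and matched the same 4 members. Some genes that the rule names are not reported here. The members and lists were chosen with earlier results of these data known. Alternatives used DESeq2 1.42.0, limma 3.58.1 (voom with quality weights), library totals, no filter, a prior count of 0.5, acinar or macrophage scores (mean log2 CPM of the tested markers) as covariates, BG at most 121 in PX, and leaving out each library. The macrophage score of the 13 markers called higher was added after seeing the data.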

Additional observations from a re-analysis of the deposited data

Results flagged for a closer look

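Among 26 measures over the 10 sham libraries, 6 had a highest or lowest library far from the others. The cutoff would flag about 1 in 20 independent measures of normal spread. These measures vary together and most flags fell on sham 46, so the 6 are not compared with that rate. Sham 46 was far above the other sham libraries in RT1-Db1, at 21.9 CPM with the next library at 11.9 CPM, and in RT1-Bb, at 13.3 CPM with the next at 9.26 CPM. The same library had the highest sum of macrophage markers, at 193 CPM with the next at 124 CPM, of dendritic cell markers, at 41.6 CPM with the next at 24.9 CPM, and of mesenchymal markers, at 755 CPM with the next at 359 CPM. Sham 49 was far above the rest in the log2 ratio of Cd74 to RT1-Da, at 1.65 with the next at 1.24. Without sham 49 the difference of this ratio between PX and sham was -0.39 (permutation test, adjusted p = 0.00324), against -0.45 with it.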

How the results depend on the processing

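The call of 6 class II genes held in 28 alternatives, with 8 called when no filter was used, and was lost (0 called) with either macrophage score as covariate, where RT1-Db1 turned to -0.080 with the score of the 13 markers called higher. Over all genes, 4088 calls became 6414 with limma voom, 2148 with the acinar score, 2550 with PX animals of BG 121 or less, and 9 and 6 with the macrophage scores. Library totals moved the median of all genes to -0.28 and gave 990 higher and 2227 lower calls, against 1961 and 2127. They also moved the median BG slope of all genes within PX to -0.10. BG slopes within PX turned sign with library totals (Cd74 -0.039, RT1-Da -0.068, RT1-Db1 -0.068, RT1-Ba -0.031, RT1-Bb -0.054), without the 2 animals of highest BG (Cd74 -0.097, RT1-Da -0.15, RT1-Db1 -0.20, RT1-Ba -0.076, RT1-Bb -0.059), with the macrophage score (Cd74 -0.021, RT1-Da -0.062, RT1-Db1 -0.047, RT1-Bb -0.056) and, for Ciita, in all 21 libraries with group as covariate (0.013). Leaving out each library in turn, slopes within PX ran from 0.0091 to 0.13 for Cd74, -0.063 to 0.065 for Ciita, -0.020 to 0.19 for RT1-Ba, -0.029 to 0.12 for RT1-Bb, -0.022 to 0.13 for RT1-Da and -0.038 to 0.16 for RT1-Db1, and within sham from -0.0058 to 0.37 for RT1-Ba and -0.062 to 0.47 for RT1-Db1. The log2 ratio of RT1-DMa to RT1-DMb, at 0.01, ran from -0.15 to 0.17 likewise, and was -0.049 with PX animals of BG 121 or less. The cause was not tested. No paired analysis was possible because the groups share no animal numbers. Depth limits Ciita in sham and the RT1-DM and RT1-DO genes.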
